A study of Saccharomyces cerevisiae with 14 samples.

Results

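The first growth interval after LIMK1 induction was described by comparing 2 samples of each screen, the culture in galactose at T1 and the culture in raffinose from which it had been started at T0. Both were taken from 3 screens, so that 6 of the 24 count columns of the series were compared, and all 16000 variants of the human cofilin-1 N-terminal tail were measured in each of them. The series is a pooled growth competition in budding yeast, in which cells carried plasmids encoding tail variants and the fraction of reads of a variant stood for its abundance. Positions 2, 4 and 5 held any of 20 residues and position 3 held Ser or Thr.

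At T1 the cells grew in medium with raffinose and galactose and 10 mg/L doxycycline (DOX). At T0 they had grown in raffinose with the same concentration of DOX, and another culture, in glucose with DOX, was started from the same T0 cells and also sampled at T1. All of these samples share the TeTO7-COF1 strain TH_5610, in which DOX switches off the only yeast cofilin gene COF1 (YLL050C; assembly R64, chromosome XII, 39804 to 40414), a GAL1-driven plasmid for FLAG-tagged LIMK1, and His6-tagged cofilin-1 variants made from the constitutive GPD promoter of a multicopy plasmid. Galactose induces LIMK1 and glucose represses it. The change from T0 to T1 in galactose therefore holds growth on the variant alone, the change of sugar and the arrival of the kinase, which cannot be told apart within this interval. The 3 screens were grown from frozen aliquots of 1 transformed pool, so the spread between them leaves out the making of that pool.

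Cofilin binds actin filaments, severs them and speeds their disassembly, and yeast cannot grow without it. Its short N-terminal tail lies against actin, and LIM kinases switch cofilin off by phosphorylating Ser3. LIMK1 acts far more weakly on Thr than on Ser at this position, so a Thr3 variant with the same neighbours is a partner that keeps a hydroxyl residue but is a poor substrate of the kinase.

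Each residue was encoded by 1 codon at each position, so a residue and its codon cannot be told apart. The sequences below span positions 2 to 5 from 5′ to 3′, with the codon of position 5, the position that separated variants most, in capitals. They include the tails of human (ASGV), budding yeast (RSGV) and Arabidopsis (ASGM) cofilins. Thr3 and Glu5 forms of the human tail and the most enriched variant follow. The last 4 variants were chosen after their values were seen. They show a His5 variant that rose, a change at position 3 alone that turned the direction, and the most depleted variant.
ASGV: gctagcggtGTT
RSGV: cgtagcggtGTT
ASGM: gctagcggtATG
ATGV: gctaccggtGTT
ASGE: gctagcggtGAA
TSNV: actagcaacGTT
FSLH: ttcagcctgCAT
RSGY: cgtagcggtTAC
RTGY: cgtaccggtTAC
WTAR: tggaccgctCGT

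The galactose samples at T1 held 21465387, 36675500 and 18909009 reads in screens 1, 2 and 3, and the T0 samples held 13008751, 29439770 and 17836734. Every variant was read in every T0 sample, and 3, 3 and 27 variants had no read at T1 in galactose in screens 1, 2 and 3. A count of 0 there allows up to 0.14, 0.0818 and 0.159 RPM, the reads of a variant per 1000000 reads of its sample. Over all variants, log2 changes from T0 to T1 correlated between screens with a Pearson's r of 0.925 to 0.938. The interval from T0 to T1 had the highest median shift of the galactose series. The median absolute log2 change was 0.53 between T-1, before DOX, and T0 (SD 0.08, n = 3 screens) and 2.55 between T0 and T1 (SD 0.11). It was 1.91 over the second galactose cycle, which ended at T2 (SD 0.46), and 0.68 over the last (SD 0.19). In the glucose culture the median absolute log2 change between T0 and T1 was 2.30 (SD 0.12).

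The reads became concentrated in fewer variants within this single interval. In galactose at T1, 1560, 1410 and 1557 variants together took 50% of the reads in screens 1, 2 and 3, against 4270, 4551 and 4302 variants at T0. The 400 most frequent variants of each sample held 19.0%, 20.2% and 18.7% of the reads at T1 in galactose, against 7.89%, 7.27% and 7.81% at T0. The median variant was at 14.5, 9.88 and 11.9 RPM at T1 in galactose, against 54.3, 55.8 and 54.8 at T0.

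By edgeR's quasi-likelihood test with the screen as a block and Benjamini-Hochberg adjustment over all variants, 4150 variants rose from T0 to T1 in galactose (25.9% of those tested), 10377 fell (64.9%) and 1473 did not pass the test at an adjusted p of 0.05. The 3 fractions at T1 lay above all 3 fractions at T0 for 4154 variants (26%) and below all of them for 10345 (64.7%). The direction was the same in every screen for 14466 of the 14527 variants that passed. Mean log2 changes over screens spanned −6.45 to 3.25 with a median of −2.60. Of all variants, 1212 lay above 2 on the log2 scale, 6655 lay below −3 and 2396 lay within 1 of no change. The variant just inside the threshold was VSLN, with a log2 change of 0.45 (SE 0.23, edgeR adjusted p = 0.04997), and the variant just outside it was ATQM, with 0.82 (SE 0.41, adjusted p = 0.0501).

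These changes are relative to the pool, and the split between rise and fall moved with the scaling. TMM normalization added 1.55 to the median log2 change and called 5754 variants higher and 8392 lower, so that 40.7% of calls were higher, against 28.6% with total reads. DESeq2's size factors added 2.29 and gave 6480 higher and 6199 lower, of which 51.1% were higher. Scaled to ASGV, 1 variant was higher and 14558 were lower. A scaling shifts all variants of a sample alike, so the differences between residues are the same under each of them.

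The native tails were among the variants that rose most. ASGV, the human tail, had 355, 369 and 295 RPM at T1 in galactose in screens 1, 2 and 3, against 65.0, 61.2 and 42.9 at T0. All 3 T1 values lay above all 3 T0 values, and the log2 change was 2.61 by edgeR (SE 0.21, adjusted p = 1.1e-34, rank 128 of 16000). RSGV, the yeast tail, had 287, 366 and 321 RPM in galactose at T1, against 42.1, 48.5 and 50.2 at T0, a log2 change of 2.79 (SE 0.21, adjusted p = 2.6e-38, rank 42). ASGM, the plant tail, had 503, 454 and 594 in galactose at T1, against 74.6, 91.3 and 81.8 at T0. Its log2 change of 2.64 (SE 0.20, adjusted p = 1.3e-37) differed from those of the other native tails by less than their standard errors.

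The 5 highest changes all belonged to Ser3 variants, and none of them was a native tail. TSNV had 580, 576 and 604 RPM in galactose at T1, against 43.0, 76.2 and 71.1 at T0, and its log2 change of 3.25 was the highest by edgeR (SE 0.21, adjusted p = 1.5e-52). RSGM, HSNL, ISLL and ESGM followed with 3.20, 3.19, 3.17 and 3.14 (SE 0.21 to 0.32), so that neighbours in this order differed by less than their errors. Position 4 held Gly, Asn or Leu in these variants, and position 5 held Val, Met or Leu. ISLL had fallen by 1.87 on the log2 scale between T-1 and T0 (SD 0.29, n = 3 screens) before it rose, and TSNV by 0.55 (SD 0.14). FTGL, a Thr3 variant, rose by 3.10 (SE 0.25, adjusted p = 2.3e-33) and ranked 6. It had 126, 211 and 210 RPM in galactose at T1, against 11.5, 23.9 and 31.7 at T0.

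The lowest changes rested on few reads. WTAR had 2, 0 and 0 reads in galactose at T1 in screens 1, 2 and 3, against 62, 82 and 37 at T0. Summed over screens, its fraction at T1 was 0.00865 of that at T0 (95% exact Clopper-Pearson interval 0.00104 to 0.0317, counting error only). PSRW had 1, 3 and 0 reads in galactose at T1, against 54, 215 and 34 at T0. GTGW, GSAD and WSRS completed the 5 lowest, with fitted log2 changes of −6.37, −6.25 and −6.17 (SE 0.84, 0.94 and 0.74). Arg, Trp, Asp or Ser stood at position 5 in these variants, and Ala, Arg or Gly at position 4.

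Substitutions of the human tail showed how unevenly the positions tolerated change. Of the 19 variants that differed from ASGV at position 2, 18 rose, and the highest was RSGV. The lowest and only one that did not pass the test was FSGV, with a log2 change of 0.02 (SE 0.29, edgeR adjusted p = 0.94). LSGV rose by 2.27 (SE 0.28, adjusted p = 2.6e-15) and DSGV, with an acidic residue in place of Ala2, by 2.20 (SE 0.20, adjusted p = 4.4e-27). LSGM, which combines substitutions at positions 2 and 5, rose by 2.44 (SE 0.22, adjusted p = 1.4e-27). At position 3, ATGV rose by 2.33 (SE 0.22, adjusted p = 3.8e-26).

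At position 4 of the human tail, 8 of 19 substitutions rose, 9 fell and 2 did not pass, and at position 5 the numbers were 9, 10 and 0. ASWV was the highest substitution of Gly4 (2.35, SE 0.23, adjusted p = 5.4e-23). ASLV and ASFV also rose, by 1.59 (SE 0.23, adjusted p = 2.9e-11) and 1.30 (SE 0.21, adjusted p = 1.5e-09). ASAV, with Ala in place of Gly4, had 24.1, 9.73 and 12.8 RPM in galactose at T1, against 15.8, 17.6 and 12.7 at T0, and did not pass the test (log2 −0.08, SE 0.51, adjusted p = 0.88). ASPV fell by 0.91 (SE 0.37, adjusted p = 0.015), a call that was lost without screen 2, and its direction was the opposite under TMM and DESeq2. ASKV fell by 2.72 and ASEV, the lowest, by 3.42 (SE 0.39 and 0.41). With DESeq2 the change of ASKV was −0.44 and did not pass the test.

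At position 5 of the human tail, ASGM was the highest and ASGR the lowest, at −4.20 (SE 0.66, adjusted p = 4.2e-10). ASGE had 4.66, 3.14 and 3.07 RPM in galactose at T1, against 38.1, 23.6 and 47.2 at T0, a fall of 3.29 on the log2 scale (SE 0.51, adjusted p = 2.2e-10). The aromatic variants split, since ASGF rose by 2.27 (SE 0.33) and ASGY by 2.18 (SE 0.21), whereas ASGW fell by 1.41 (SE 0.51, adjusted p = 0.0066). Of the 58 single substitutions, RSGV, YSGV, SSGV and ASGM had a higher log2 change than ASGV itself, each by less than its standard error.

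Residues were compared next over the whole library by the deviation of their variants' mean log2 change from the mean of all variants. Each residue at position 2, 4 or 5 was present in 800 variants, and Ser3 and Thr3 in 8000 each. By limma on 1 value per screen, 27 of 62 residues lay above the mean (43.5%) and 31 below it (50%). The deviations of the residues at 1 position sum to 0, so these calls are not independent of each other.

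Position 5 separated variants more than any other position. Met5 deviated by 2.99, 3.00 and 3.11 in screens 1, 2 and 3 (mean 3.03, SE 0.04, limma adjusted p = 3.1e-12), and 664 of its 800 variants rose and 61 fell. Ile5 followed with a deviation of 2.56 (SD 0.12, n = 3 screens), Thr5 with 2.33 (SD 0.09), Val5 with 2.15 (SD 0.11) and Leu5 with 2.02 (SD 0.14). The ranges of Val5 and Leu5 over the screens overlapped, with Val5 above Leu5 in each of them. Cys5 deviated by 1.92 (SD 0.13), and 479 of its variants rose. The native Val5 was thus below Met5, Ile5 and Thr5 in every screen.

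A gap separated these 6 residues from the rest. Phe5, the next residue, deviated by 0.57 (SD 0.16, n = 3 screens), and 217 of its variants rose and 434 fell. Ser5 and Ala5 lay at 0.23 (SD 0.12) and 0.19 (SD 0.10), calls that were lost without screen 2. At the low end, Arg5 deviated by −1.85, −2.34 and −2.54 in screens 1, 2 and 3 (mean −2.24, SE 0.10, limma adjusted p = 9.8e-09), and 0 of its 800 variants rose while 799 fell. Lys5 deviated by −2.01 (SD 0.27) with 0 rising and 798 falling, and Trp5, Glu5 and Asp5 by −1.77, −1.72 and −1.69 (SD 0.12, 0.10 and 0.12).

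**Figure D1:**
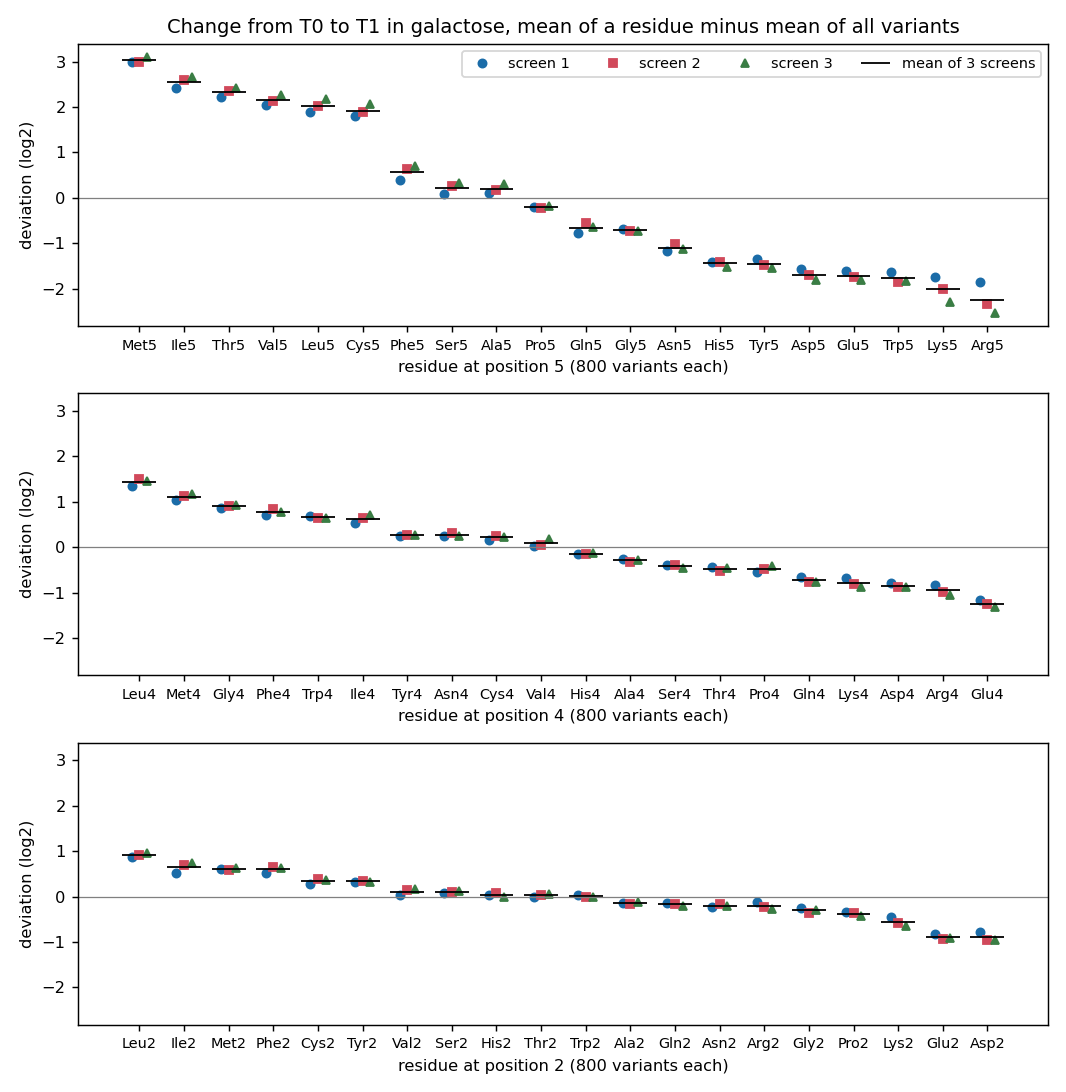
Deviation of each residue's mean log2 change from T0 to T1 in galactose from the mean of all 16000 variants, at positions 5, 4 and 2, with 1 symbol per screen and a line at the mean of 3 screens. At position 5, Met, Ile, Thr, Val, Leu and Cys lie between 1.92 and 3.03 and the next residue, Phe, at 0.57, while positions 4 and 2 change without such a step.

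The residue classes at position 5 took very different shares of the pool at T1. Variants with Met, Ile, Thr, Val or Leu at position 5 held 62.9%, 66.4% and 63.4% of all reads at T1 in galactose in screens 1, 2 and 3, against 22.6%, 27.6% and 23.4% at T0. At T-1 they had held 29.7%, 34.5% and 34.5%, so their share was lower after growth in raffinose with DOX than before it. Among these 4000 variants, 2756 were called higher at T1 and 729 lower, where 25.9% and 64.9% of the whole library were. Variants with Lys, Arg or His at position 5 held 1.98%, 1.33% and 1.53% of the reads at T1 in galactose, against 13.1%, 12.8% and 14.3% at T0. Counting error moves none of the shares at T0 or at T1 in galactose by more than 0.0227 percentage points (95% Wilson intervals). That limit was not computed for T-1. With 3 screens the exact permutation of signs cannot give a p below 0.25.

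**Figure D2:**
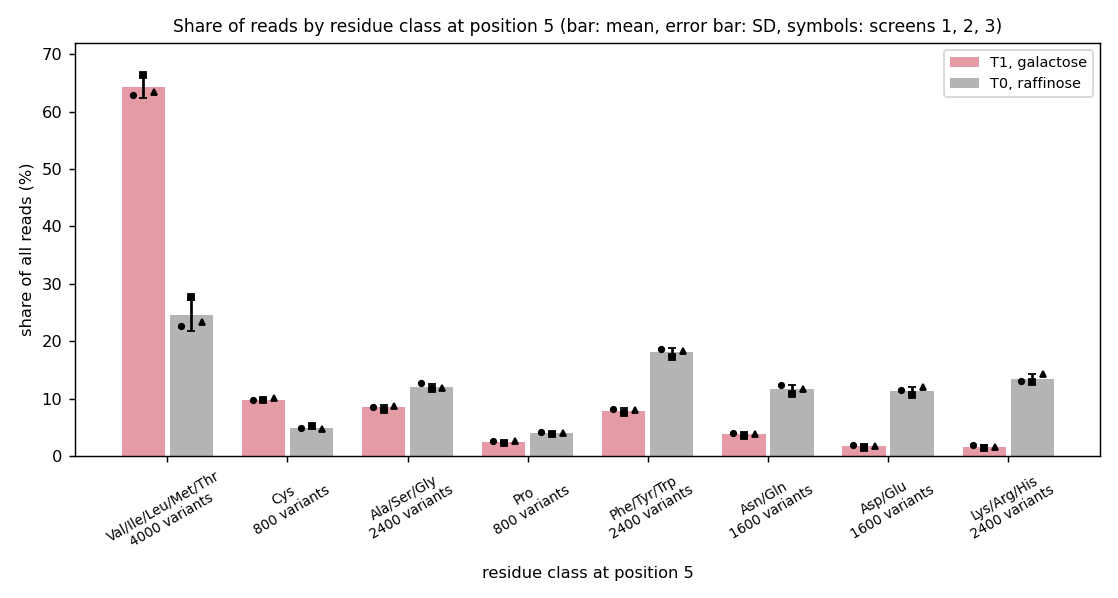
Share of all reads held by variants of each residue class at position 5 at T1 in galactose and at T0, as the mean of 3 screens with its SD and 1 symbol per screen. The class of Met, Ile, Thr, Val and Leu took 62.9% to 66.4% of reads at T1 in galactose, against 22.6% to 27.6% at T0, and Cys was the only other class whose share was higher at T1.

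At position 4 the order was led by large hydrophobic residues and by the native Gly. Leu4 deviated by 1.36, 1.49 and 1.47 in screens 1, 2 and 3 (mean 1.44, SE 0.04, limma adjusted p = 3.2e-10). With total reads, it was the only residue outside position 5 for which more variants rose than fell (405 and 293 of 800), a count that depends on the scaling. Met4 deviated by 1.11 (SD 0.07), Gly4 by 0.90 (SD 0.03), Phe4 by 0.77 (SD 0.07) and Trp4 by 0.66 (SD 0.03). Ala4, Ser4 and Thr4, the other small residues, were below the mean with −0.28, −0.41 and −0.47 (SD 0.03 to 0.04). The lowest were Glu4 at −1.25 (SD 0.08), Arg4 at −0.95 (SD 0.11), Asp4 at −0.85 (SD 0.06), Lys4 at −0.79 (SD 0.11) and Gln4 at −0.73 (SD 0.06).

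Position 2 was also led by hydrophobic residues, with smaller deviations. Leu2 deviated by 0.92 (SD 0.05), Ile2 by 0.65 (SD 0.11), and Met2 and Phe2 by 0.60 each (SD 0.02 and 0.07). The next was Cys2, at 0.34 (SD 0.06). Asp2 and Glu2 deviated by −0.89 and −0.88 (SD 0.10 and 0.06), Lys2 by −0.56 (SD 0.09), Pro2 by −0.38 (SD 0.04) and Gly2 by −0.31 (SD 0.05). Native Ala2 lay slightly below the mean (−0.14, SE 0.04, limma adjusted p = 0.0056), and this call was lost without screen 2. Lys and Arg differed at position 2, since Arg2 was at −0.21 (SD 0.07) and lay above Lys2 in every screen.

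Split into orthogonal parts, the sum of squares of the log2 changes was carried by position 5 for 54.1% (SD 0.45, n = 3 screens), by position 4 for 10.0% (SD 0.37), by position 2 for 4.17% (SD 0.35) and by position 3 for 0.46% (SD 0.16). Pairs of positions added 15.6% (SD 0.48), of which positions 4 and 5 together gave 8.66% (SD 0.61), and combinations of 3 or 4 positions gave 15.7% (SD 0.34), a part that also holds the noise of single variants. From T0 to T1 in glucose the split was much the same, with 54.7% for position 5 (SD 0.82) and 0.46% for position 3 (SD 0.03). In the next galactose interval, T1 to T2, position 5 carried 23.5% (SD 2.98) and position 3 carried 3.94% (SD 1.34). Combinations of 3 or 4 positions carried 42.0% there (SD 4.90). At T2 in galactose, 8493, 5150 and 8940 variants had under 50 reads in screens 1, 2 and 3. The intervals share T0 or T1 samples, so these values stand side by side without a test.

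Charge at positions 2 and 4 counted against variants that had a favourable position 5. With Met, Ile, Thr, Val or Leu at position 5 and no Asp, Glu, Lys or Arg at positions 2 and 4, 2102 of 2560 variants rose and 177 fell, and the median log2 change was 1.67 (SD 0.20, n = 3 screens). With 1 charged residue, 635 of 1280 rose and 431 fell (median 0.58, SD 0.20). With charged residues at both positions, 19 of 160 rose and 121 fell (median −2.41, SD 0.19). When both were acidic, 0 of 40 rose and all 40 fell (median −3.24, SD 0.23). When both were basic, 9 of 40 rose (median −2.14, SD 0.14), and with opposite charges 10 of 80 rose (median −1.71, SD 0.27).

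Variants with Asp, Glu, Lys, Arg or His at position 5 rarely rose. His, which was not counted as charged above, is included here. Of these 4000 variants 30 rose and 3893 fell, where 25.9% and 64.9% of the whole library did. The 30 that rose had His5 in 13 variants, Glu5 in 10 and Asp5 in 7, and none had Lys5 or Arg5. Their position 4 was Leu in 22, Val in 4, Ile in 2 and Met in 2, and position 2 was most often Ile (8), Phe (6) or Leu (5). FSLH was the highest of them, with 75.7, 86.2 and 59.7 RPM in galactose at T1, against 10.6, 28.3 and 18.7 at T0 (log2 2.02, SE 0.34, edgeR adjusted p = 6.6e-09). Among the 40 variants with Leu4 and His5, 13 rose (32.5%) and 8 fell (20%). Their rising share was near that of the whole library (25.9%), and their falling share was below it (64.9%). These groups were formed after the calls were seen and have no test of their own.

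For every pair of residues at 2 positions, the mean log2 change of the pair was compared with the sum of its residues' deviations. By limma, 452 pair terms were above 0 (34.2%) and 448 below (33.9%), and 161 in each direction joined positions 4 and 5. Terms of 1 pair of positions sum to 0 in each residue, and a lower limit to the values can produce terms of either sign, which was not tested. Of the 5 highest terms, 4 placed Gly or Ser at position 5 beside a bulky residue at position 4, and Gly4-Tyr5 had the opposite arrangement. Ile4-Gly5 exceeded its sum by 2.13 (SE 0.08, adjusted p = 3.3e-05) and Leu4-Gly5 by 2.02 (SE 0.07, adjusted p = 3.3e-05), and 30 of the 40 Leu4-Gly5 variants rose. Trp4-Ser5 exceeded its sum by 1.90 (SE 0.04, adjusted p = 1.9e-05), with 30 of 40 rising, and Phe4-Gly5 by 1.85 (SE 0.11, adjusted p = 7.5e-05).

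Gly at both positions was the reverse case. The Gly4-Gly5 term was −1.73 (SE 0.07, adjusted p = 3.3e-05), and all 40 variants fell, although Gly4 alone was above the mean. Leu4-Pro5, with a term of −2.03 (SE 0.07), and Ile4-Pro5, with −1.49 (SE 0.05), fell in 34 and 37 of 40 variants with 0 rising. Leu4-Arg5 and Leu4-Lys5 were also below their sums, by −1.57 and −1.49 (SE 0.04 each), and 0 of the 40 variants of each pair rose. The native pair Gly4-Val5 exceeded its sum by 0.78 (SE 0.06, adjusted p = 2.0e-04), with 39 of 40 variants rising, and its mean log2 change was 2.21 (SD 0.21, n = 3 screens). Several other pairs lay within that spread, among them Gly4-Met5 (2.19, SD 0.28), Asn4-Ile5 (2.17, SD 0.22), Tyr4-Met5 (2.14, SD 0.36) and Leu4-Met5 (2.12, SD 0.18). Leu4-Val5 did not depart from its sum (0.03, SE 0.06, adjusted p = 0.68), yet all 40 of its variants rose (mean 2.00, SD 0.03).

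**Figure D3:**
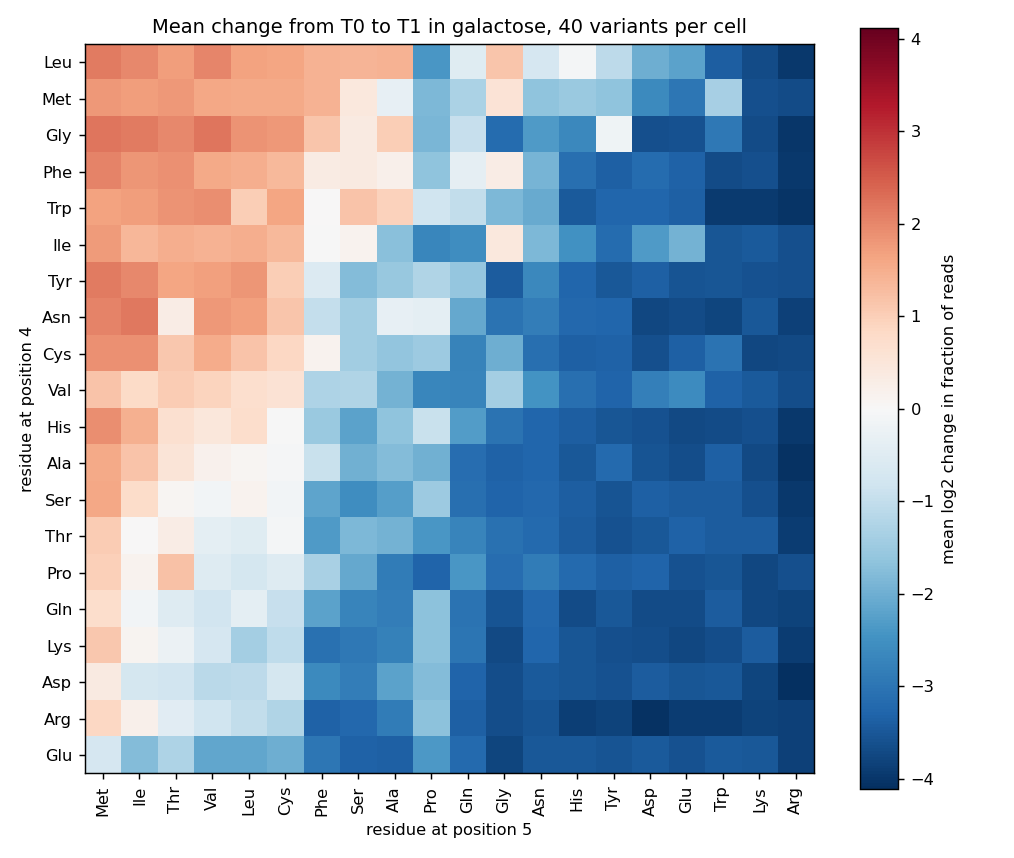
Mean log2 change from T0 to T1 in galactose for each of the 400 combinations of residues at position 4 (rows) and position 5 (columns), each the mean of 40 variants and 3 screens, ordered by residue deviation. Single cells depart from their rows and columns, such as Gly4-Gly5 at −3.16, Leu4-Gly5 at 1.13, Leu4-Pro5 at −2.41 and Gly4-Tyr5 at −0.17.

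Gly4-Tyr5 was also among the highest pair terms (2.00, SE 0.11, adjusted p = 6.6e-05), and its 40 variants separated by the residue at position 3. With Ser3, 18 of 20 rose and 0 fell, with a median log2 change of 1.71 (SD 0.32, n = 3 screens). With Thr3, 0 of 20 rose and 19 fell, with a median of −1.79 (SD 0.40). RTGY had 16.1, 12.0 and 19.7 RPM in galactose at T1, against 145, 119 and 122 at T0, and thus fell by 3.04 (SE 0.29, edgeR adjusted p = 9.0e-25). Its Ser3 partner RSGY had 103, 111 and 117 in galactose at T1, against 13.6, 22.4 and 24.4 at T0, and rose by 2.49 (SE 0.30, adjusted p = 1.5e-16). Gly4-Phe5 differed less, with 16 of 20 Ser3 variants and 12 of 20 Thr3 variants rising, and Gly4-Trp5 gave 0 rising variants with either residue.

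The residue at position 3 had a small average effect. Thr3 deviated by 0.12, 0.18 and 0.17 in screens 1, 2 and 3, and Ser3 by the same amounts below the mean (SE 0.04, limma adjusted p = 0.0032 for this single contrast). Without screen 2 the Thr3 deviation was 0.14 and did not pass the test. Of the Thr3 variants 2318 rose and 4887 fell, and of the Ser3 variants 1832 rose and 5490 fell. In 8000 pairs that differ only at position 3, limma called Thr3 higher in 1314 (16.4%) and Ser3 higher in 503 (6.29%). Leaving out screen 1, 2 or 3 gave 1063, 790 or 731 pairs with Thr3 higher and 255, 198 or 156 with Ser3 higher. Both forms rose in 1552 pairs and both fell in 4678. Thr3 rose while Ser3 fell in 421 pairs, and Ser3 rose while Thr3 fell in 67.

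Which form was ahead varied with the neighbours of position 3. Averaged over the other positions, Thr3 exceeded Ser3 by 1.43, 1.47 and 1.42 on the log2 scale in screens 1, 2 and 3 when Thr stood at position 5, and 343 of 400 Thr3-Thr5 variants rose, compared with 201 of 400 Ser3-Thr5 variants. The Thr3-Thr5 term exceeded the sum of its residues by 0.56 (SE 0.04, limma adjusted p = 1.3e-04). With Pro5 the difference was 1.36 (SD 0.20, n = 3 screens). There 89 of 400 Thr3 variants rose and 224 fell, compared with 23 and 341 of 400 Ser3 variants. Most Pro5 variants of either form thus fell, and the rising share with Thr3 (22.2%) was below that of the library (25.9%). With Cys5 it was 0.99 (SD 0.09). Tyr5 turned it to −0.37 (SD 0.05), and Phe5, Trp5 and Asp5 to between −0.12 and −0.17. In galactose less glucose at T1, the difference was 0.19 with Thr5 (SD 0.19), 0.13 with Pro5 (SD 0.08), 0.05 with Cys5 (SD 0.11) and −0.02 with Tyr5 (SD 0.03). Most of the difference beside Thr5, Pro5, Cys5 and Tyr5 was thus also present in glucose, where LIMK1 is repressed.

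At position 4, Thr3 was furthest ahead beside charged residues and Gln. The mean difference was 0.94 with Arg4 (SD 0.10), 0.93 with Lys4 (SD 0.12), 0.88 with Gln4 (SD 0.09), 0.87 with Asp4 (SD 0.09) and 0.78 with Glu4 (SD 0.14). With a charged residue at position 4 and Met, Ile, Thr, Val or Leu at position 5, 219 of 400 Thr3 variants rose and 100 fell, while 63 of 400 Ser3 variants rose and 288 fell. Ser3 was ahead beside Val4 (−0.56, SD 0.04), Gly4 (−0.35, SD 0.08), Ile4 (−0.29, SD 0.02) and Leu4 (−0.23, SD 0.02), and all of these differences had the same sign in every screen. Most of each was also present in glucose. For the residues named here, galactose less glucose at T1 lay between −0.11 with Val4 (SD 0.08) and 0.20 with Gln4 (SD 0.05). At position 2 the difference was largest with Thr2 (0.61, SD 0.08) and below 0 in every screen with Pro2 (−0.20, SD 0.07).

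**Figure D4:**
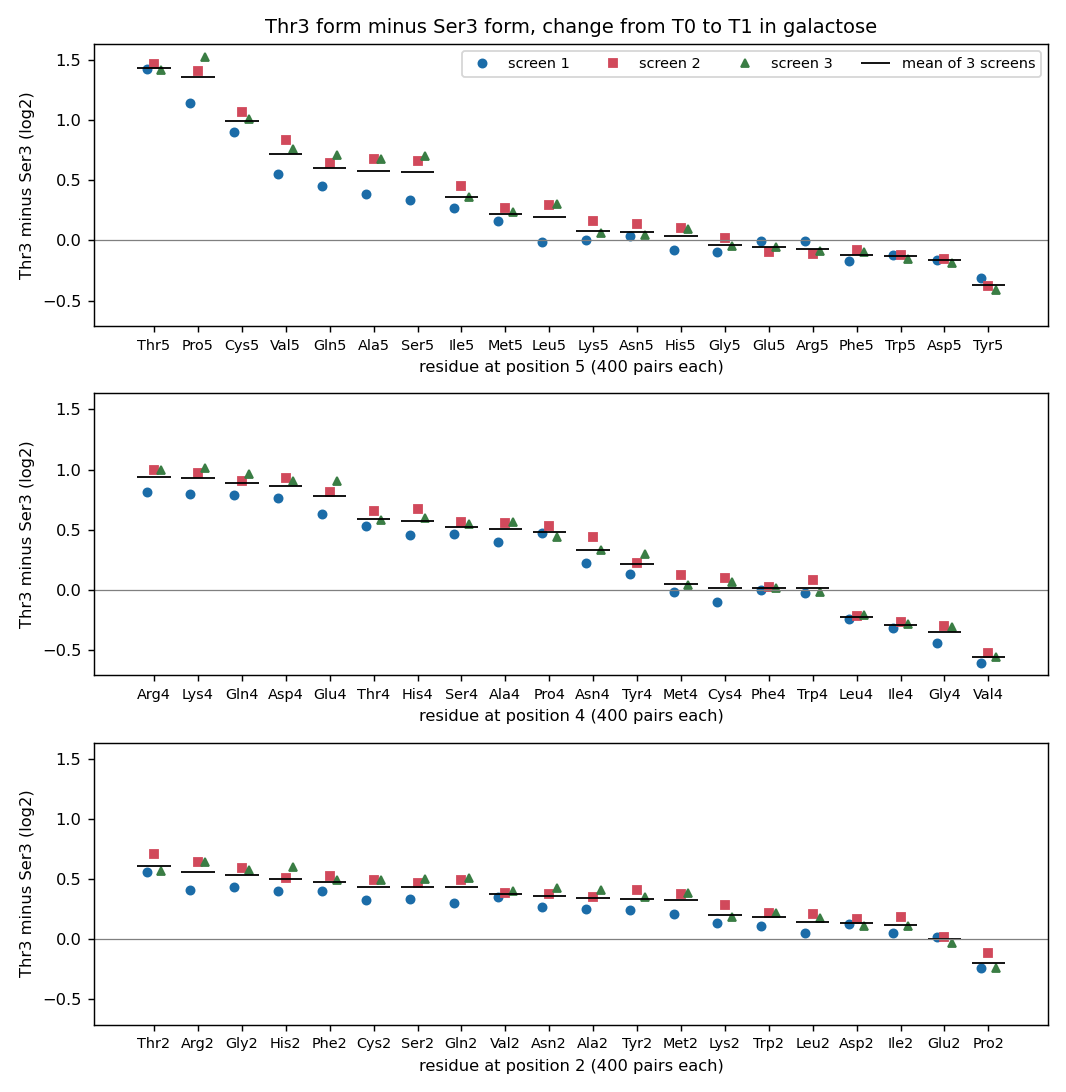
Log2 change from T0 to T1 in galactose of the Thr3 form minus that of the Ser3 form, averaged over the 400 pairs that share the residue named at position 5, 4 or 2, with 1 symbol per screen and a line at the mean. Thr5 (1.44) and Pro5 (1.36) stand highest and Tyr5 (−0.37) lowest at position 5, and Val4, Gly4, Ile4 and Leu4 lie below 0 in every screen.

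Single pairs reached much larger differences. The highest were those of TTHP over TSHP (6.26, SE 0.74, limma adjusted p = 0.0031), LTRV over LSRV (6.10, SE 0.58, adjusted p = 0.0018) and YTPQ over YSPQ (5.84, SE 0.53, adjusted p = 0.0017). The sizes of the TTHP and YTPQ differences rested on few reads of their Ser3 forms. TSHP had 0.28, 0.0545 and 0.212 RPM in galactose at T1 in screens 1, 2 and 3. The TTHP minus TSHP difference was 4.34, 8.41 and 6.05 in these screens. YSPQ lay between 0.264 and 1.63 RPM in galactose at T1. LTRV had 60.2, 74.8 and 53.4 RPM in galactose at T1, against 8.61, 20.9 and 9.81 at T0, and LSRV had 6.80, 1.55 and 1.16 in galactose at T1, against 22.1, 36.6 and 37.7 at T0. The lowest Thr3 minus Ser3 differences were those of RTGY and RSGY (−5.53, SE 0.36), PTPC and PSPC (−5.26, SE 0.30) and VTGY and VSGY (−5.20, SE 0.39), each with an adjusted p of 0.0017. In the native contexts the forms did not pass the test. ATGV minus ASGV was −0.28 (SE 0.34, adjusted p = 0.60) and RTGV minus RSGV was −0.04 (SE 0.32, adjusted p = 0.93). FTGL exceeded FSGL by 3.91 (SE 0.61, adjusted p = 0.0075).

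The glucose culture of the same screens asked whether these changes were particular to the medium that induces LIMK1. Both T1 cultures came from the same T0 cells, and the T1 samples of 1 time point were distinguished by a short barcode within 1 sequencing file. The T1 samples were compared directly, without T0. The median absolute log2 difference between galactose and glucose was 0.45 (SD 0.04, n = 3 screens), and the differences of single variants correlated between screens with a Pearson's r of 0.133 to 0.263. By edgeR with the screen as a block, 695 variants were higher in galactose than in glucose (4.34%) and 1003 were lower (6.27%). With TMM these numbers were 1049 and 303, so that 77.6% of calls were higher in galactose, against 40.9% with total reads, and without the block they were 134 and 63.

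An average difference between Ser3 and Thr3 variants was not detected between the cultures at T1. The Thr3 minus Ser3 difference, averaged over 8000 pairs, was higher in galactose than in glucose by 0.02 (SD 0.05, n = 3 screens), and the residue test gave an adjusted p of 0.68 by limma. None of the 8000 pairs passed the limma test of this difference, and at an unadjusted p of 0.05 there were 465 above and 366 below 0. Averaged by neighbouring residue, the same difference ran from −0.17 with Asn4 (SD 0.11, n = 3 screens) to 0.20 with Gln4 (SD 0.05). With Gln4 and Met, Ile, Thr, Val or Leu at position 5, 43 of 100 Ser3 variants were called lower in galactose and 1 higher. With Thr3 these numbers were 9 and 3 of 100, where 6.27% and 4.34% of the library were. Among the variants that edgeR called higher in galactose, 452 carried Ser3 and 243 carried Thr3, and among those called lower, 496 and 507. This split moved with the scaling, since the variants called lower were 221 with Ser3 and 82 with Thr3 by TMM, and 251 and 75 by DESeq2. Variants called higher carried Ser3 more often than Thr3 under both scalings (607 and 442 by TMM, 712 and 516 by DESeq2). With total reads, 1832 Ser3 and 2318 Thr3 variants had risen from T0. Of these, 452 with Ser3 and 239 with Thr3 were called higher in galactose than in glucose, and 96 and 331 were called lower. That rise was called from the same galactose samples. These counts have no test of their own. ASGV had 355, 369 and 295 RPM in galactose at T1, against 445, 315 and 234 in glucose at T1, and did not differ by the test (log2 0.08, SE 0.12, adjusted p = 0.73). ATGV had 283, 263 and 224 in galactose, against 222, 158 and 175 in glucose, and was higher in galactose by 0.48 (SE 0.12, adjusted p = 0.0070).

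Residue means differed between the cultures by much less than they had changed from T0. Met5 was higher in galactose than in glucose by 0.32, 0.54 and 0.20 in screens 1, 2 and 3 (mean 0.35, SE 0.06, limma adjusted p = 0.020), and Thr5 by 0.24 (SD 0.14, adjusted p = 0.027). Leu4, Trp4, Met4, Tyr4 and Leu2 were higher by 0.10 to 0.15, and Arg5, Arg4, Lys5, Pro5, Trp2, Glu4 and Gly2 were lower, with differences of −0.23 to −0.08. In all, 7 of 62 residues were higher (11.3%) and 7 were lower (11.3%). These numbers fell to 2 and 1 without screen 1, and to 0 and 0 without screen 2 and with the screens unpaired, whereas 16 and 19 were called without screen 3. Among single variants, LSYV was the highest with a rise from T0, at 162, 164 and 174 RPM in galactose, against 74.0, 76.3 and 76.4 in glucose at T1 (log2 1.14, SE 0.15, edgeR adjusted p = 2.6e-06). ATER, LTHR, DTIG and DTHD had higher differences (1.44 to 1.74, adjusted p 0.040 to 0.048) but had fallen from T0 in galactose, and each of these calls was lost without screen 1 and without screen 2.

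**Figure D5:**
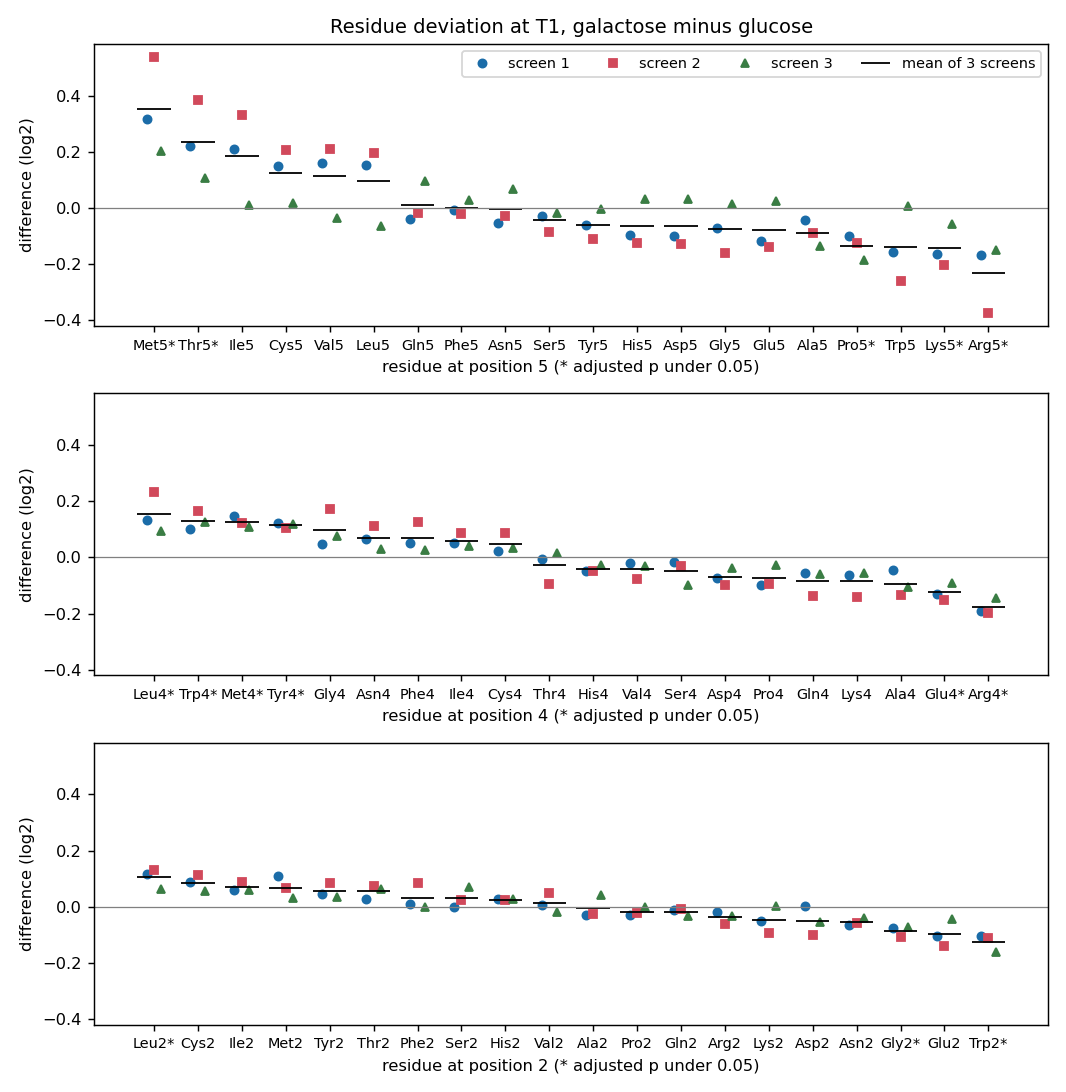
Difference in residue deviation between the galactose and the glucose culture at T1, at positions 5, 4 and 2, with 1 symbol per screen, a line at the mean of 3 screens and an asterisk at an adjusted p under 0.05. Met5 (0.35) and Arg5 (−0.23) are the highest and the lowest difference, and no residue passed the test without screen 2.

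The variants lowest in galactose relative to glucose rested on few reads. WSDR had 4, 9 and 1 reads in galactose at T1, against 49, 93 and 93 in glucose at T1 (log2 −3.93, SE 0.76, edgeR adjusted p = 4.4e-04). WTAR had 2, 0 and 0 reads in galactose, against 24, 14 and 5 in glucose, and its summed fraction in galactose was 0.0536 of that in glucose (95% exact Clopper-Pearson interval 0.00628 to 0.206, counting error only). KSHR had 1, 2 and 0, against 13, 33 and 3, a ratio of 0.0705 (interval 0.0141 to 0.218). PSRW and RSHG completed the 5 lowest, with 4 and 5 reads in galactose over all screens. Arg, Trp or Gly stood at position 5 in these 5 variants. The calls of WTAR, KSHR, PSRW and RSHG were lost without screen 2, without screen 3 and with the screens unpaired.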

How the data were processed

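Per the deposited tables, the values are read counts of each variant, which the authors made by matching the 12 bases of positions 2 to 5 in amplicon reads of plasmids recovered from yeast. Whether the random bases of the primers were used to remove PCR copies is not given in the sources used here, so intervals and limits cover counting error only. No column was left out of use for want of a sample (0). Counts were divided by the column total. edgeR 4.0.16 (quasi-likelihood, screen as a block) tested variants, and limma 3.58.1 on R 4.3.3 tested residue means, residue pairs and Thr3 minus Ser3 pairs, from log2 fractions with a pseudocount of 0.5 reads. P-values were adjusted over all features by Benjamini-Hochberg at 0.05. Screens pair the samples because each T1 culture was split from its T0 culture. As a check, each variant's mean over the 3 screens was subtracted from its log2 fractions, separately at T0 and at T1. These residuals of every T1 sample in galactose correlated best with those of its own T0 sample (r = 0.209, 0.322 and 0.150). With the T0 residuals of other screens r was −0.21 to −0.02. The residuals of a variant sum to 0 over screens, so values below 0 between screens follow in part from the subtraction. They add no separate support for the pairing. None of these r values is a correlation between whole samples. Named variants were the native tails, variants the study discusses, and the 5 highest and lowest called ones per comparison, and other names were chosen after their values were seen. Members and lists were chosen with earlier results of these data known. Alternatives were TMM, DESeq2 1.42.0, scaling to ASGV, a minimum of 50 reads, a pseudocount of 5, medians, no block, T-1 as the start and leaving out each screen. Scripts were tested on simulated data in which few variants changed, as many up as down. That setting does not cover a pool in which most variants changed, as here.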

Additional observations from a re-analysis of the deposited data

Results flagged for a closer look

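The comparison of the cultures at T1 was singled out because the changes of the same cells differed between galactose and glucose by a direct test. By edgeR, 695 variants were higher in galactose and 1003 were lower. By limma on residue means, Met5 (0.353), Thr5 (0.237), Leu4 (0.154), Trp4 (0.130), Met4 (0.127), Tyr4 (0.116) and Leu2 (0.104) were higher in galactose than in glucose on the log2 scale. Arg5 (−0.230), Arg4 (−0.177), Lys5 (−0.142), Pro5 (−0.137), Trp2 (−0.125), Glu4 (−0.124) and Gly2 (−0.0849) were lower. None of the 14 residue calls remained without screen 2. Among the variants named by the study, ASGM (0.707), ATGV (0.480) and LSGM (0.373) were higher in galactose and ASAV (−1.16) was lower by edgeR. Of the other single substitutions of the human tail, PSGV, ASNV, ASYV, ASGL, ASGF, ASGT and ASGY were also higher (0.36 to 0.69), and WSGV (−0.65) and GSGV (−0.52) were lower. Sugar and LIMK1 differ together between these cultures and cannot be told apart.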

How the results depend on the processing

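The direction of change from T0 depended on the scaling, and the differences between residues did not. Relative to total reads, TMM shifted the median log2 change by 1.55, DESeq2 by 2.29 and scaling to ASGV by −2.61. DESeq2 called 6480 variants higher and 6199 lower, and scaling to ASGV called 1 higher. ASAV was 1.47 with TMM and 2.21 with DESeq2, and ASPV 0.64 and 1.39. Scaled to ASGV, ATGV was −0.28, LSGV −0.33, LSGM −0.17, DSGV −0.41, ASLV −1.02 and ASFV −1.30. Without the replicate block, 4075 variants rose and 10287 fell. Between the cultures, calls higher and lower in galactose were 1049 and 303 with TMM, 1228 and 326 with DESeq2 and 134 and 63 without the replicate block. Leaving out 1 screen gave 361 to 604 higher and 536 to 817 lower. Residue calls between the cultures were 0 and 0 without the replicate block, and 0 to 16 higher and 0 to 19 lower with 1 screen left out. Pairs with Thr3 higher numbered 731 to 1063 and with Ser3 higher 156 to 255 with 1 screen left out, and with T-1 as the start Thr3 was higher in 1913 and Ser3 in 1187. The Trp2 deviation was −0.25 with T-1 as the start, and that of Pro5 was 0.16 with medians. The causes were not tested. Depth limits the variants with few reads at T1.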
